A study of Mus musculus with 3 samples.

Results

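The glutathione, thioredoxin and antioxidant enzymes were 60 genes of the 27670 on the array, read by 91 of 41174 probes. They were chosen by name: the glutathione peroxidases (Gpx), glutathione transferases (Gst and Mgst), peroxiredoxins (Prdx), thioredoxins and their reductases (Txn, Txnrd), Txnip, superoxide dismutases (Sod) and glutaredoxins (Glrx), with Gclc, Gclm, Gsr, Gss, Nqo1, Hmox1, Cat, Srxn1, Nfe2l2 and Keap1. Of these, 56 were well above background in at least 1 channel on all arrays and were tested, among 18033 genes tested in all. Gpx5, Gpx6 and Sod3 were too dim, and Prdx6-ps2 had its spot marked as an outlier on 1 array, so these 4 were not tested.

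RNA from mouse neural stem cells of genotype Dnmt3a-/- (labelled KO) was compared with RNA from wildtype cells (labelled WT) on 3 two-colour Agilent arrays, each described as a biological replicate. Dnmt3a encodes a DNA methyltransferase that places new methyl groups on DNA, and the study asked how it bears on proliferation and differentiation of neural stem cells. Cells of both genotypes were grown out of mouse embryonic stem cells through neurospheres into attached cultures in serum-free N2B27 medium with EGF and bFGF. Whether each genotype was a single clone, and which part of Dnmt3a was deleted, was not given in the sources used here.

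Glutathione is the main small thiol of the cell: it is made in successive ligation steps from glutamate, cysteine and glycine, serves peroxidases as the electron donor against peroxides, and is joined to reactive compounds by the glutathione transferases. Thioredoxin with its NADPH-dependent reductase runs a parallel system that feeds the peroxiredoxins, while superoxide dismutases and catalase need no thiol. Many of these genes carry antioxidant response elements, to which the transcription factor NRF2 (Nfe2l2) binds once it escapes degradation through KEAP1. Neural stem cells are known to use reactive oxygen species as a growth signal as well as to defend against them.

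Some facts bear on every value. All values are log2 ratios, labelled KO divided by labelled WT. Dnmt3a went against its label: its brightest probe was at 1.07, 0.97 and 0.92 on arrays 1, 2 and 3, a mean of 0.99 ± 0.08 (SD, n = 3; limma, adjusted p = 9.4e-07), and its other tested probes were at 0.76 and 0.61. A probe outside the deleted part would not show the loss, and directions are given by label and would be opposite had the channels been exchanged. RNA labelled KO carried the green dye and RNA labelled WT the red dye on every array, so a bias of a probe toward a dye cannot be told apart from genotype. The arrays lay on 1 slide, well above background were 63.6% to 68.8% of probes per channel, and ratios correlated between arrays at r of 0.91 to 0.93 across genes, which are not independent replicates. The p-values measure only the spread between these samples, whose median SD was 0.056 on the log2 scale over all genes and 0.048 over the members. In bulk RNA, fewer cells of a type and less RNA per cell cannot be told apart. Of 9 neural stem cell markers, all were tested, 7 were lower (Nes -0.11, Sox2 -0.36 and Sox9 -1.19 among them) and 2 were higher (Pax6 0.24, Prom1 0.14) in RNA labelled KO, and their summed intensity was 56400 to 57800 against 67200 to 70200 in labelled WT. The fibroblast and mesenchyme markers were 0 higher and 4 lower of 5, with a summed intensity of 138000 to 142000 against 163000 to 181000, where the probes of Col1a1 and Col3a1 were saturated in labelled WT on all 3 arrays, so that the labelled WT sum is a lower limit. Astrocyte markers had 2 of 4 lower, neuron markers 2 of 4, oligodendrocyte lineage markers 3 of 5, and none of these was higher. Of the microglia and macrophage markers 1 of 3 was higher, neither of 2 endothelial markers passed, and Pou5f1, Nanog and Zfp42 were not tested, while Dppa5a of the same embryonic stem cell list was higher at 0.17. All these marker calls and sums were made with loess, explained below, where 22.5% of all genes were higher and 25.5% lower. Marker values without loess are not given here. The part of these markers in the members' values was not tested.

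With loess, the smoothing that evens the dyes along the brightness range within each array, the glutathione and antioxidant genes were mostly higher in RNA labelled KO, whereas with plain median centring 25 of 56 members were lower and 9 higher. Of 56 tested, 34 were higher and 9 lower at adjusted p under 0.05 (limma, Benjamini-Hochberg over all genes), that is 60.7% and 16.1%, beside 22.5% higher and 25.5% lower among all genes. The members' median log2 ratio was 0.16, and that of all genes -0.01. The alpha class glutathione transferases Gsta1, Gsta3 and Gsta4 were higher under both scalings, while the peroxiredoxins were mostly higher with loess and none was without. These genes differ in brightness, and dim probes shifted less between the scalings than bright ones, as given below. The peroxidase Gpx7, at 7.40-fold lower, was by far the widest difference among the members. By at least 0.5 on the log2 scale 13 members were higher and 3 lower, where 2.82% and 2.72% of all genes were. Of the 82 tested probes of members 48 were higher and 11 lower, beside 20.7% and 23.6% of all probes.

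The balance thus rested on loess. When ratios were centred by their array median alone, the value at the middle of all genes was -0.26 and that of the members -0.24, and 9 members were higher (16.1%) and 25 lower (44.6%). The median used was that of all spots other than controls, dim ones included, and not of the genes tested. In that fit 4.05% of all genes tested were higher and 52.1% lower, so the tested genes lay on the lower side. Each count given with median centring below stands against these shares. Each loess count of a family below stands against 22.5% higher and 25.5% lower among all genes. With normexp, the background correction, fitted on all spots, outlier-marked ones included, 28 members were higher and 7 lower, beside 12.9% and 17.4% of all genes. The higher share of members past the threshold was 26.5% with median centring instead of 79.1%, and that of all genes 7.22% instead of 46.9%. Relative to the median of all genes, 42 of 56 members lay above it with loess and 31 of 56 without. Glrx, Gsta1, Gsta2, Gsta3, Gsta4, Gstm1, Gstm3, Gsto1 and Mgst2 were higher either way, though Gsta2 was tested only through its signal labelled KO. Dim probes shifted less between the scalings than bright ones. Gsta1 (mean log2 intensity 7.27) went from 0.68 to 0.52, and Mgst2 (7.23) from 0.72 to 0.56. Prdx6 (12.06) went from 0.50 to 0.01, and Gstm1 (14.18) from 1.06 to 0.48. A call kept either way thus also depended on the brightness of the probe.

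**Figure D1:**
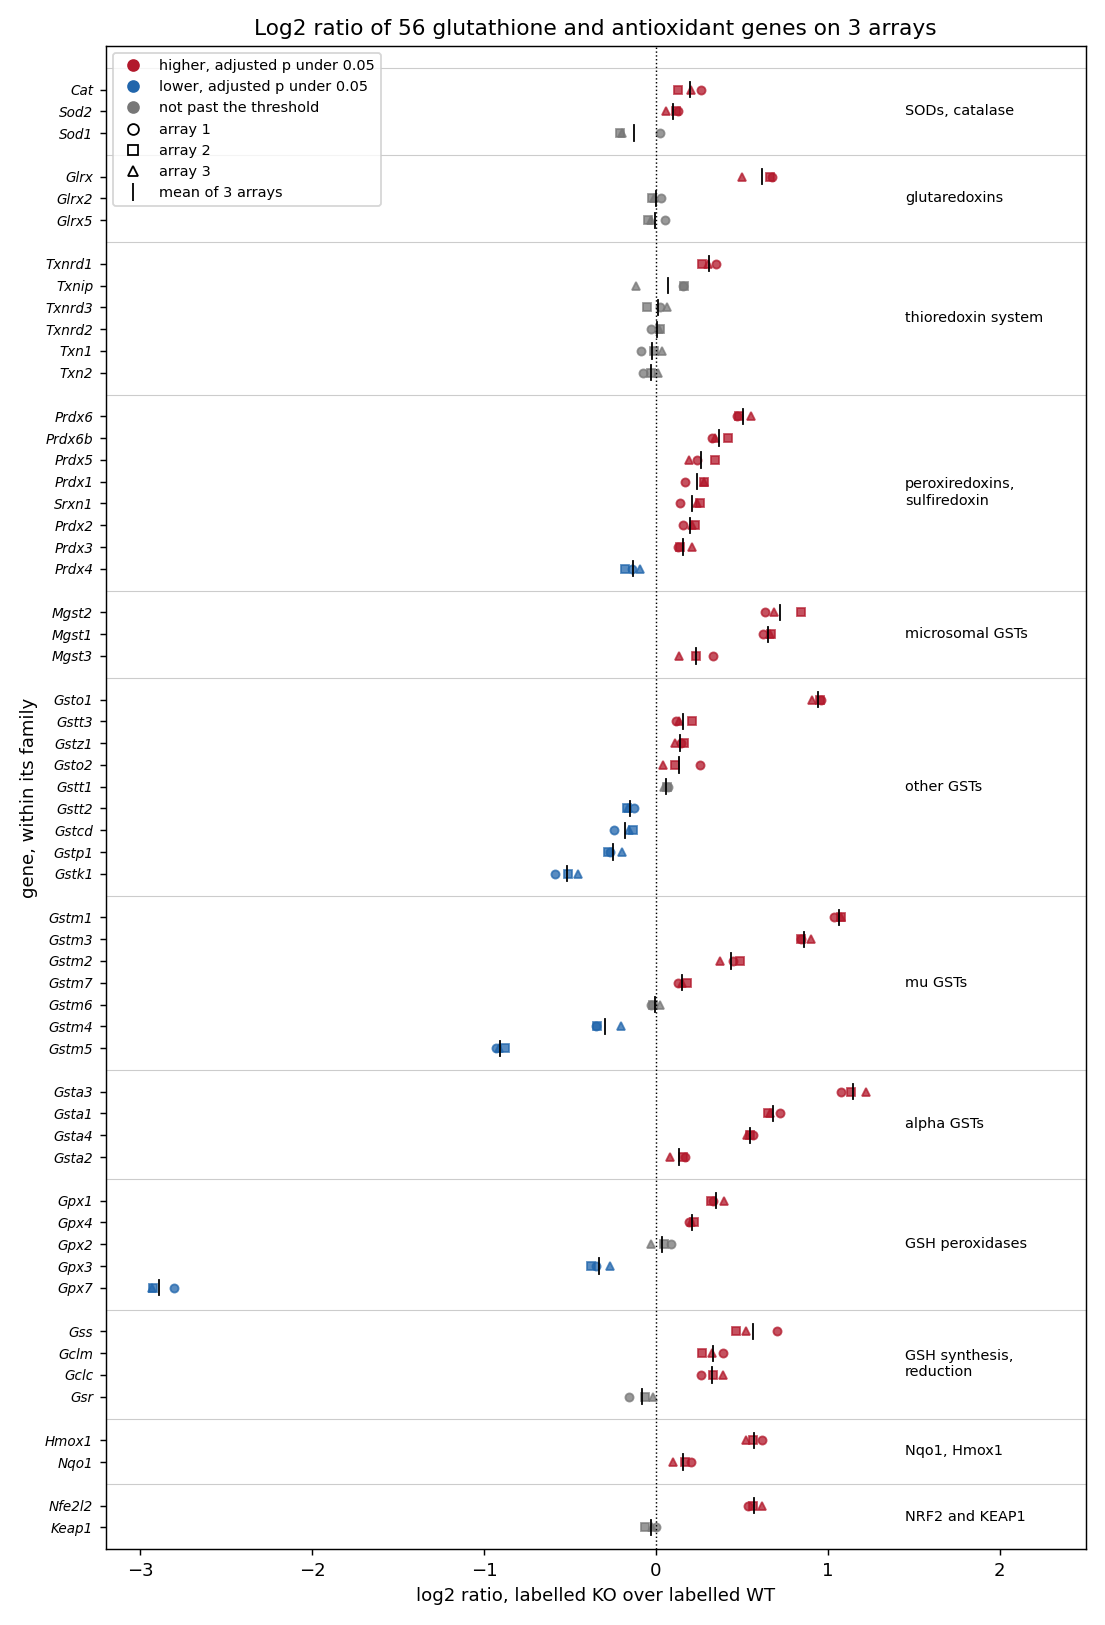
Log2 ratio after loess (x axis, labelled KO divided by labelled WT) of the 56 tested genes, grouped by family (y axis), with 1 symbol per array, a bar at the mean of 3 arrays and colour for the call at adjusted p under 0.05 (limma). Gpx7 stands alone near -2.89, the alpha class transferases lie between 0.14 and 1.15, and the thioredoxin system lies near 0 apart from Txnrd1 at 0.31; without loess 25 of the members were lower and 9 higher, beside 52.1% and 4.05% of all genes.

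**Figure D2:**
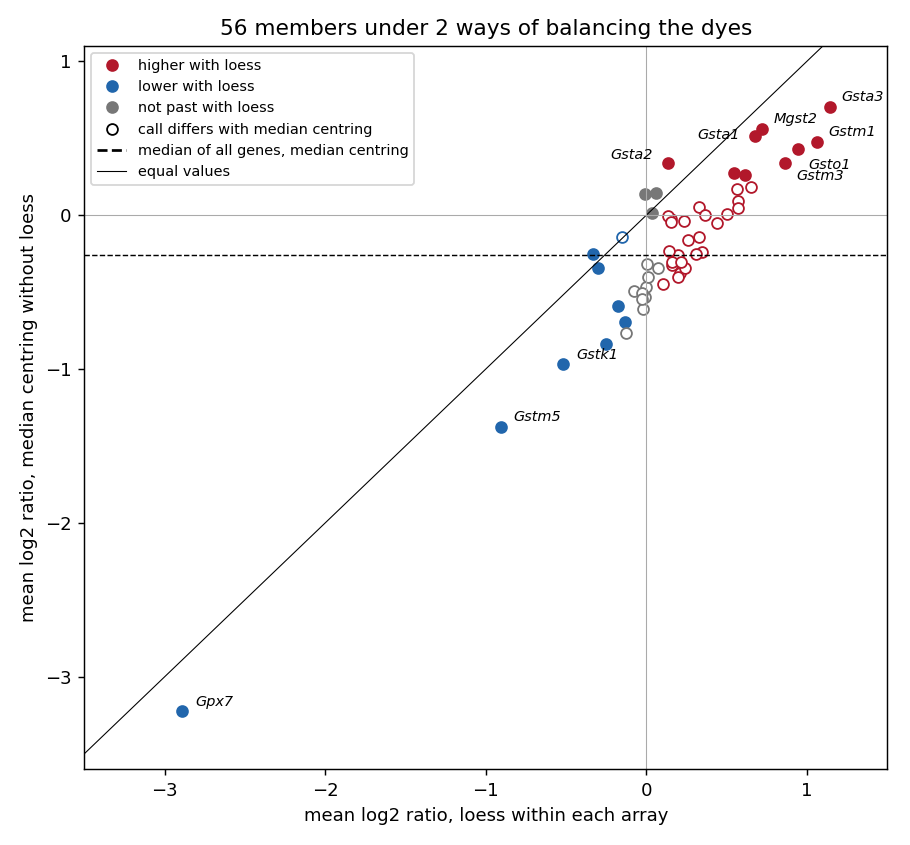
Mean log2 ratio of each member over 3 arrays with loess (x axis) against median centring without loess (y axis), where open symbols mark genes whose call differs and the dashed line is the median of all genes without loess, -0.26. Nearly all members fall below the line of equal values, and 9 of the 34 higher members keep that call.

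To show the promoters behind these genes, RefSeq windows (build GRCm38.p6) of 250 bases before to 50 after an annotated start were matched for 51 of 60 members. Gclc, Gsr, Gsta4, Gstt2, Hmox1, Prdx6, Prdx6-ps2, Prdx6b and Sod3 had no entry. The core of the antioxidant response element, searched as TGACNNNGC on both strands (GCNNNGTCA on the other), occurred in 19.6% of these members (10 of 51), beside 14% of all genes with a window (3781 of 27025). A gene was counted if any of its windows matched. Counted by window, the core was in 14.3% of 70 windows of members and 12.4% of 32851 windows of all genes. It was in 8 of 29 higher members (Gclm, Gsta3, Gstm7, Mgst1, Nfe2l2, Prdx1, Srxn1 and Txnrd1), in 1 of 8 lower members (Gstm5) and in 1 of 12 that did not pass (Sod1). The windows of higher members held a median of 12 CpG dinucleotides, the sites of DNA methylation, those of lower members 18.5, those of members that did not pass 16, and those of all genes 7. A match describes letters and not a bound site, and methylation was not measured here. The bases before the start are printed for Gpx7 and Gstm5, the most strongly lowered members, and for the members higher by at least 0.5 whose window holds the core, with the core in capitals.
Gpx7: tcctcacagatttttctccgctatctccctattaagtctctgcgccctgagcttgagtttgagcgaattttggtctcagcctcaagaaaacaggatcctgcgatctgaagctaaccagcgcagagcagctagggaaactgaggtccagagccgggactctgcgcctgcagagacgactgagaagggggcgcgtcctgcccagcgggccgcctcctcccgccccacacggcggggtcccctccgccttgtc
Gstm5: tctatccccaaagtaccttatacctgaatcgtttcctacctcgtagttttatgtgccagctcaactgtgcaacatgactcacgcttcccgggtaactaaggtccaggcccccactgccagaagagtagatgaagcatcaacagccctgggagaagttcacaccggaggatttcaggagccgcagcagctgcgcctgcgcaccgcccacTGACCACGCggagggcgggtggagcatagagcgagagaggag
Gsta3: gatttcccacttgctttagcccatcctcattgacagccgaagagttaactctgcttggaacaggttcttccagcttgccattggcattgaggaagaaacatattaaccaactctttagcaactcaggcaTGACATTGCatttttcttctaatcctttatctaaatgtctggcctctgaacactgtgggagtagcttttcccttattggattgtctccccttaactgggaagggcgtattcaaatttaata
Mgst1: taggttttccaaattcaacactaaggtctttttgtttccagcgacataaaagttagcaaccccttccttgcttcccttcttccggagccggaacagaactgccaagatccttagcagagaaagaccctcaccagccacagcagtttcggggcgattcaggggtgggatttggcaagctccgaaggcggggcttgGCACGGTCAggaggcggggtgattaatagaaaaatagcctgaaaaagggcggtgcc
Nfe2l2: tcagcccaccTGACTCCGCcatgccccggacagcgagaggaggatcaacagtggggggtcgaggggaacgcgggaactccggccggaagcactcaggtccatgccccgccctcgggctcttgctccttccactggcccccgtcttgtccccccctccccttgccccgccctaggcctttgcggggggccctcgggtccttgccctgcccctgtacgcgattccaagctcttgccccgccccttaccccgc

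They lie at chr4:108406714-108406963 (Gpx7, minus strand), chr3:107895604-107895853 (Gstm5, plus strand), chr1:21240335-21240584 (Gsta3, plus strand), chr6:138140277-138140526 (Mgst1, plus strand) and chr2:75704664-75704913 (Nfe2l2, minus strand) of GRCm38.p6. The core begins 121 bases before the start in Gsta3, 56 in Mgst1 (on the opposite strand), 240 in Nfe2l2 and 42 in Gstm5, and there is none in the Gpx7 window. The stretch shown for Gsta3 holds 2 CpG dinucleotides, that of Gpx7 16 and that of Nfe2l2 18.

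Among the regulators, Nfe2l2, which encodes NRF2, was higher with loess alone of the 2 scalings, and Keap1, the adaptor that sends NRF2 to degradation, did not pass. The brightest Nfe2l2 probe (mm7 chr2:75519430-75519489) read 0.54, 0.56 and 0.62 on arrays 1, 2 and 3, with normalised log2 intensities of 12.97, 12.91 and 12.98 labelled KO and 12.43, 12.35 and 12.36 labelled WT. The channels did not overlap, and the mean was 0.57 ± 0.04 (SD, n = 3), or 1.49-fold higher (limma, adjusted p = 7.9e-06). Its other probes were at 0.35, 0.31 and 0.05, the last of them not past the threshold. Keap1 read 0.00, -0.06 and -0.02, a mean of -0.03 ± 0.03 (limma, adjusted p = 0.50). With median centring Nfe2l2 was at 0.05 (adjusted p = 0.72) and Keap1 at -0.51 (adjusted p = 0.0035, limma), both against an all-gene median of -0.26.

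Hmox1 and Nqo1, grouped here as NRF2 targets outside the glutathione system, were higher with loess, and Nqo1 turned with median centring. Hmox1, the inducible heme oxygenase that opens heme to biliverdin, iron and carbon monoxide, read 0.62, 0.57 and 0.53 (mm7 chr8:73642229-73642288). All 3 arrays agreed in sign, with a mean of 0.57 ± 0.05 (SD, n = 3), or 1.49-fold higher (limma, adjusted p = 8.7e-06). Nqo1, the quinone reductase often taken as the marker of NRF2 activity, read 0.20, 0.17 and 0.10, a mean of 0.16 ± 0.05, or 1.12-fold higher (limma, adjusted p = 0.0069). With median centring Hmox1 was at 0.09 (adjusted p = 0.42) and Nqo1 turned to -0.33 (adjusted p = 0.019, limma). From the scanner's processed signals Nqo1 was at 0.10 (limma, adjusted p = 0.11).

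The enzymes that build glutathione were higher with loess and none of them passed with median centring, and Gsr, which recycles it, did not pass with loess in the setting used here. Gss, glutathione synthetase, which adds glycine in the last step, read 0.70, 0.46 and 0.53, a mean of 0.56 ± 0.12 (SD, n = 3; limma, adjusted p = 5.6e-05). Gclc, the catalytic subunit of the rate-limiting glutamate-cysteine ligase, read 0.26, 0.33 and 0.39, a mean of 0.33 ± 0.06 (limma, adjusted p = 0.00023). Gclm, its modifier subunit, read 0.39, 0.27 and 0.33, a mean of 0.33 ± 0.06 (limma, adjusted p = 0.00021). The ligase subunits thus had the same mean ratio in this setting, 1.26-fold, and each was positive on 3 of 3 arrays. The equal size did not hold with other background steps. From the scanner's processed signals Gclm was at 0.52 and Gclc at 0.31, and with a normexp offset of 10 they were at 0.40 and 0.33. Gsr, glutathione reductase, read -0.16, -0.06 and -0.02, a mean of -0.08 ± 0.07 (limma, adjusted p = 0.12), while another of its 3 probes was higher at 0.14. Median centring left Gss at 0.17 (adjusted p = 0.090), Gclm at 0.05 (adjusted p = 0.58) and Gclc at -0.14 (adjusted p = 0.31, limma). Gsr was then lower at -0.49 (limma, adjusted p = 0.0063), beside 52.1% of all genes lower. With normexp fitted on all spots Gclc was at 0.29 and Gclm at 0.13 (limma, adjusted p = 0.0086 and 0.053). In that fit Gsr was lower at -0.10 (limma, adjusted p = 0.047).

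The glutathione peroxidases went both ways, with 2 of 5 tested higher and 2 lower, against 0 higher and 3 lower with median centring. Gpx7 (mm7 chr4:107777137-107777196) encodes a peroxidase of the endoplasmic reticulum that has cysteine in place of selenocysteine and takes part in oxidative protein folding. Its log2 intensity was 7.24, 7.09 and 7.21 in the channel labelled KO and 10.05, 10.02 and 10.14 in the channel labelled WT, and its ratio was -2.81, -2.93 and -2.93. The channels were far apart on every array and well above background in both. The mean of -2.89 ± 0.07 (SD, n = 3) made it 7.40-fold lower (limma, adjusted p = 8.4e-09). The size depended on the background correction: it was -1.42 with normexp fitted on all spots and -3.79 from the scanner's processed signals, and it remained past the threshold in both (limma, adjusted p = 0.010 and 0.00021). Gpx3, the secreted plasma peroxidase, was lower at -0.33 ± 0.06 but was well above background in labelled KO on 1 of 3 arrays. Its value ran from -0.04 (limma, adjusted p = 0.090) with normexp on all spots to -1.63 from the processed signals.

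Gpx1, the abundant cytosolic selenoenzyme, was higher at 0.35 ± 0.04 and Gpx4, which reduces lipid hydroperoxides in membranes, at 0.21 ± 0.01 (limma, adjusted p = 1e-04 and 0.0011). Gpx2, known from the gut epithelium, was at 0.04 ± 0.06 and did not pass. With median centring Gpx1 was at -0.24 (adjusted p = 0.091) and Gpx4 at -0.38 (adjusted p = 0.018, limma). Gpx8, a related peroxidase of the endoplasmic reticulum that the array lists under an older clone name and the name rule therefore missed, was lower at -0.21 ± 0.07 (limma, adjusted p = 0.0026).

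**Figure D3:**
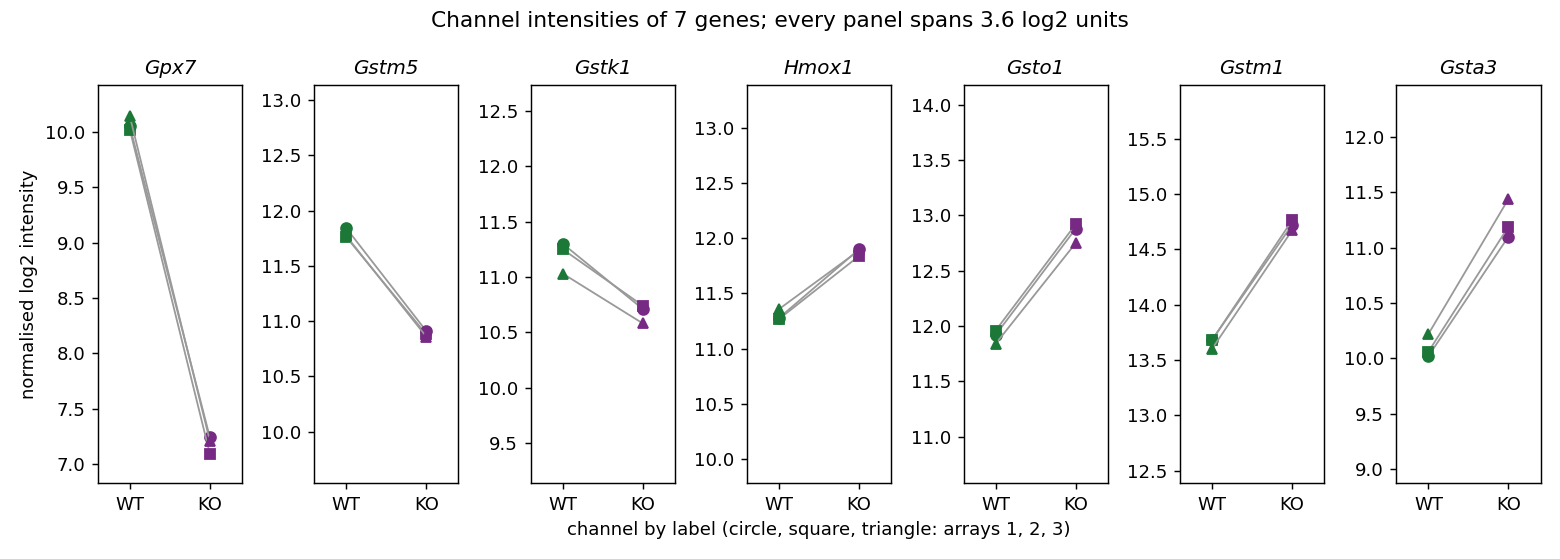
Normalised log2 intensity (y axis) of 7 members in the channels labelled WT and KO (x axis), with 1 line per array and the same span in every panel. Gpx7 drops from 10.02 to 10.14 in labelled WT to 7.09 to 7.24 in labelled KO, and Gsta3 goes from 10.02 to 10.22 to 11.10 to 11.44.

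All 4 alpha class glutathione transferases were called higher, with a median of 0.61. Gsta2 passed the filter only through the channel labelled KO. The 3 that were well above background in both channels were all higher, with a median of 0.68. These cytosolic enzymes conjugate glutathione to electrophiles and handle products of lipid peroxidation. Gsta3 (mm7 chr1:21459782-21459841) read 1.08, 1.14 and 1.22 on the arrays, a mean of 1.15 ± 0.07 (SD, n = 3), or 2.21-fold higher (limma, adjusted p = 4.5e-07), and its second probe was at 0.92. It had the highest ratio of all members, and its channels did not overlap. Gsta4, which acts on the lipid aldehyde hydroxynonenal, read 0.56, 0.55 and 0.53, a mean of 0.55 ± 0.02 (limma, adjusted p = 7.2e-06). Gsta1 read 0.72, 0.65 and 0.66, a mean of 0.68 ± 0.04 (limma, adjusted p = 3e-06). Gsta1 and Gsta2 are near-identical copies, and the probe of each lists the other, so their signals may be shared. The Gsta2 probe was not well above background in the channel labelled WT on any array, with mean log2 intensities of 6.09 labelled KO and 5.95 labelled WT. The channel labelled KO was 1.1-fold brighter than the lowest signal well above background, or than the probe's own labelled WT signal where that was higher. The measured ratio passed the threshold (limma, adjusted p = 0.012). The 1.1-fold is no lower limit across settings, since Gsta2 lost its call with normexp on all spots.

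With median centring all 4 were still called higher, at a median of 0.43, Gsta2 again being tested only through labelled KO. With normexp fitted on all spots 3 of 4 were, Gsta2 losing its call (limma, adjusted p = 0.28), at a median of 0.18, with Gsta1 at 0.16 and Gsta4 at 0.20, while the processed signals gave 1.18 for Gsta1.

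The mu class, a cluster of neighbouring genes on chromosome 3, was split, with 4 of 7 higher and 2 lower (2 and 2 with median centring). Gstm1, a major mu class enzyme of liver, read 1.03, 1.08 and 1.08, a mean of 1.06 ± 0.03 (SD, n = 3), or 2.09-fold higher (limma, adjusted p = 2.8e-07), with a second probe at 0.92. Gstm3 read 0.85, 0.85 and 0.90, a mean of 0.86 ± 0.03, or 1.82-fold higher (limma, adjusted p = 8.2e-07). Gstm5 (mm7 chr3:107716471-107716530) read -0.93, -0.88 and -0.91, a mean of -0.91 ± 0.03, or 1.88-fold lower (limma, adjusted p = 5.8e-07), with log2 intensities of 10.86 to 10.91 labelled KO and 11.76 to 11.84 labelled WT. The arrays thus placed members of the same cluster on opposite sides with little spread. Along the chromosome the probes came in the order Gstm5, Gstm7, Gstm6, Gstm3, Gstm2, Gstm1 and Gstm4. Their means in that order were -0.91, 0.15, -0.01, 0.86, 0.44, 1.06 and -0.30, and Gstm6 did not pass. These genes are close in sequence, and how far the probes cross-hybridise was not tested.

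With median centring Gstm1 was at 0.48, Gstm3 at 0.34 and Gstm5 at -1.38, each past the threshold, while Gstm2 was at -0.05 and Gstm7 at -0.02. Gstm4 and Gstm7 lost their calls with normexp on all spots (limma, adjusted p = 0.098 and 0.062).

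**Figure D4:**
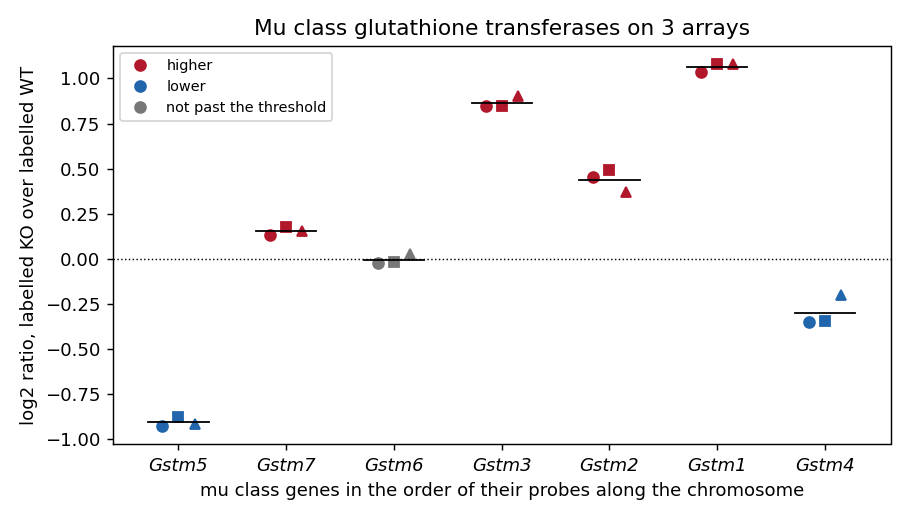
Log2 ratio after loess (y axis, labelled KO divided by labelled WT) of the 7 mu class genes in the order of their probes along the chromosome (x axis, not to scale), with arrays 1, 2 and 3 from left to right as circle, square and triangle and a bar at the mean. Gstm5 lies near -0.91 and Gstm1 near 1.06, with each gene's arrays close together; without loess these 2 were at -1.38 and 0.48.

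The other soluble transferases were as often lower as higher, with 4 of 9 each (1 higher and 3 lower with median centring). Gsto1, an omega class enzyme that reduces dehydroascorbate and removes glutathione from proteins, read 0.96, 0.96 and 0.91 (mm7 chr19:47765135-47765194), a mean of 0.94 ± 0.03 (SD, n = 3), or 1.92-fold higher (limma, adjusted p = 4.9e-07). Its neighbour Gsto2 was at 0.14 ± 0.11 (limma, adjusted p = 0.039), and at 0.08 without array 1 (adjusted p = 0.15). Gstz1, an enzyme of tyrosine breakdown, was higher at 0.14 ± 0.03 and Gstt3 of the theta class at 0.16 ± 0.05.

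Gstk1, the kappa class enzyme of mitochondria and peroxisomes, read -0.59, -0.51 and -0.45, a mean of -0.52 ± 0.07 (SD, n = 3), or 1.43-fold lower (limma, adjusted p = 2.3e-05). Its channels did not overlap, at 10.58 to 10.74 labelled KO and 11.03 to 11.30 labelled WT. Gstp1, the pi class enzyme, was lower at -0.25 ± 0.04, on a probe that also lists Gstp2, and at -0.33 on its other probe. Gstcd and Gstt2 were lower at -0.18 ± 0.06 and -0.15 ± 0.02, and Gstt1 at 0.06 ± 0.01 did not pass. Of these 9, Gsto1 alone stayed higher with median centring, at 0.43, and Gstk1, Gstp1 and Gstcd stayed lower. Gsto2, Gstz1 and Gstt2 lost their calls with normexp on all spots (limma, adjusted p = 0.25, 0.11 and 0.18). With a normexp offset of 10 Gsto2 lost its call too and Gstt1 was higher at 0.12 (limma, adjusted p = 0.067 and 0.041).

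All 3 microsomal glutathione transferases, membrane enzymes unrelated in fold to the soluble ones, were higher, and 1 of them with median centring. Mgst2, which can join glutathione to leukotrienes, read 0.64, 0.84 and 0.69, a mean of 0.72 ± 0.11 (SD, n = 3), or 1.65-fold higher (limma, adjusted p = 1e-05). Mgst1, the abundant enzyme of the endoplasmic reticulum and outer mitochondrial membrane, read 0.62, 0.67 and 0.66, a mean of 0.65 ± 0.02 (limma, adjusted p = 3.2e-06), and its second probe was at 0.80. Mgst3 was at 0.23 ± 0.10 (limma, adjusted p = 0.0029). Each was positive on every array. The value of Mgst2 moved with the background step, from 0.16 with normexp on all spots to 1.14 from the processed signals, and Mgst3 lost its call with normexp on all spots, at 0.09 (limma, adjusted p = 0.13). Without loess Mgst2 was at 0.56 and stayed past the threshold, while Mgst1 was at 0.18 (adjusted p = 0.16) and Mgst3 at -0.04 (adjusted p = 0.71, limma).

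Peroxiredoxins, which reduce peroxides at a reactive cysteine, were higher for 6 of 7 tested, as was Srxn1, sulfiredoxin, which repairs them after overoxidation, whereas none was with median centring. Prdx6, an enzyme with an added phospholipase activity, read 0.47, 0.49 and 0.55, a mean of 0.50 ± 0.04 (SD, n = 3; limma, adjusted p = 1.5e-05). Its other tested probes were higher at 0.34 and 0.16, the first of which also lists Prdx6b. Prdx6b, a copy of Prdx6 elsewhere in the genome, was higher at 0.37 ± 0.05. The copies are alike in sequence, so their signals cannot be kept apart with certainty.

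Srxn1 read 0.14, 0.26 and 0.24, a mean of 0.21 ± 0.06 (limma, adjusted p = 0.0020), and all 3 of its probes were higher. The cytosolic Prdx1 and Prdx2 were higher at 0.24 ± 0.06 and 0.20 ± 0.04, the mitochondrial Prdx3 at 0.16 ± 0.05 and Prdx5, found in several compartments, at 0.26 ± 0.08. Another Prdx2 probe was higher at 0.15, while a further one read 0.30, -0.12 and 0.27 and did not pass (limma, adjusted p = 0.15). Prdx4, the peroxiredoxin of the endoplasmic reticulum, was the exception at -0.14 ± 0.05 (limma, adjusted p = 0.013), with a second probe at -0.04 that did not pass. Prdx4 was at -0.11 without array 2 (limma, adjusted p = 0.076), and Prdx3 at 0.13 without array 3 (adjusted p = 0.051). Both lost their calls with the processed signals (limma, adjusted p = 0.074 and 0.056) and the authors' deposited table (0.076 and 0.058), and Prdx4 also with the median of its probes, at -0.09 (0.053). With median centring none of the family was higher and Prdx1, Prdx2, Prdx3 and Prdx4 were lower. Prdx6 was then at 0.01 (adjusted p = 0.97) and Srxn1 at -0.31 (adjusted p = 0.052, limma).

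In the thioredoxin system 1 of 6 genes passed with loess, in the higher direction (16.7%), beside 22.5% of all genes. With median centring 5 were lower, where 52.1% of all genes were. Txnrd1, the cytosolic thioredoxin reductase, was higher at 0.31 ± 0.04, or 1.24-fold (limma, adjusted p = 0.00021). Its substrate thioredoxin, Txn1, was at -0.02 ± 0.06, and the mitochondrial pair Txn2 and Txnrd2 at -0.03 ± 0.04 and 0.00 ± 0.03. Txnrd3, a reductase known from testis, was at 0.01 ± 0.06. Txnip, which binds thioredoxin and blocks it, read 0.16, 0.17 and -0.11, so its arrays disagreed in sign, and without array 3 it was higher at 0.16 (limma, adjusted p = 0.026). Of the glutaredoxins, which use glutathione to reduce disulfides, Glrx read 0.68, 0.67 and 0.50, a mean of 0.62 ± 0.10 (SD, n = 3), or 1.53-fold higher (limma, adjusted p = 1.8e-05). The mitochondrial Glrx2 and Glrx5, the latter a factor of iron-sulfur cluster assembly, were at 0.00 ± 0.03 and -0.01 ± 0.05. Glrx3, listed on the array under an older name outside the name rule, was higher at 0.31 ± 0.03 (limma, adjusted p = 0.00017). With median centring Glrx was at 0.26 (adjusted p = 0.033), Txnrd1 at -0.25 (adjusted p = 0.052, limma), and the other 7 of these 9 members were lower.

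Of the enzymes that act without thiols 2 of 3 were higher with loess and all 3 lower with median centring, where 52.1% of all genes were. Cat, peroxisomal catalase, read 0.26, 0.13 and 0.21, a mean of 0.20 ± 0.07 (SD, n = 3), or 1.15-fold higher (limma, adjusted p = 0.0031). Sod2, the manganese enzyme of mitochondria, was higher at 0.10 ± 0.04 (limma, adjusted p = 0.035), a call lost when any array was left out (adjusted p = 0.068 to 0.14) and with a normexp offset of 10 (0.093). Sod1, the copper and zinc enzyme of the cytosol, read 0.02, -0.21 and -0.19 on its brightest probe, which was saturated in labelled WT on 1 array, and did not pass, though without array 1 it was lower at -0.20 (limma, adjusted p = 0.0051). Another of its probes was higher at 0.15. With median centring Cat was at -0.26 (adjusted p = 0.033), and Sod2 at -0.45 and Sod1 at -0.77 were also lower (limma, adjusted p = 0.0073 and 0.00074). In the authors' deposited table Cat was at 0.16 (limma on these values, adjusted p = 0.063).

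Around these enzymes, 147 other redox genes in 8 lists were set beside them, of which 137 were tested, 54 were higher (39.4%) and 32 lower (23.4%). With loess 22.5% of all genes were higher and 25.5% lower, and each loess count of the 8 lists below stands against these shares. The lower share of the 137 was thus near that of all genes. The NRF2 targets outside the members had 14 of 20 higher and 1 lower. Ephx1, microsomal epoxide hydrolase, was higher at 1.07 ± 0.03, Fth1, the ferritin heavy chain, at 0.66 ± 0.16 (0.84, 0.56 and 0.57, its probe being saturated in labelled WT on 1 array), Osgin1 at 0.64 ± 0.04, the glutathione conjugate exporter Abcc1 at 0.63 ± 0.06 and the carbonyl reductase Cbr3 at 0.58 ± 0.01. Aox1, aldehyde oxidase, was lower at -0.44 ± 0.09 and is named after its value was seen, as the 1 lower gene of its list. Among the NRF2 regulators 3 of 13 were higher and 5 lower (1 and 9 with median centring). Of the small MAF partners Maff was higher at 0.75 ± 0.05 and Mafk at 0.27 ± 0.02, while Mafg at 0.03 ± 0.10 did not pass. Sqstm1 was higher at 0.22 ± 0.01. The lower ones were Cul3 at -0.24 ± 0.03, Fbxw11 at -0.22 ± 0.03, Nfe2l1 at -0.22 ± 0.06, Bach2 at -0.19 ± 0.07 and Rbx1 at -0.13 ± 0.01. Apart from Maff and Mafk, these regulators are named after their values were seen. With median centring 7 of the 137 were higher and 84 lower, and of the 20 NRF2 targets 2 were higher and 11 lower, beside 4.05% and 52.1% of all genes.

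Genes of glutathione turnover and precursor supply had 9 of 20 higher and 5 lower, and 1 and 10 with median centring. The gamma-glutamyl enzyme Ggt5 was higher at 1.07 ± 0.15 and Esd, which releases glutathione from its formaldehyde adduct, at 0.51 ± 0.06. Chac1, which breaks glutathione down, was lower at -1.32 ± 0.09 and Cth, which makes cysteine from cystathionine, at -0.81 ± 0.07. Slc7a11, the cystine importer, was lower at -0.37 ± 0.03 and its partner Slc3a2 at -0.22 ± 0.04. Both of these transporter genes are named after their values were seen.

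In the list of oxidative folding in the endoplasmic reticulum, where Gpx7 and Prdx4 act, 1 of 11 was higher and 5 lower, and 0 and 9 with median centring. The oxidase Ero1a was at -0.28 ± 0.04 and Pdia5 at -0.18 ± 0.17, the latter with array 1 at 0.01. Thioredoxin-fold proteins and methionine sulfoxide reductases had 9 of 18 higher and 4 lower (0 and 14 with median centring), with Txnl4a at 0.36 ± 0.05 and Tmx3 at -0.36 ± 0.06. Selenoproteins and their machinery had 6 of 22 higher and 3 lower (1 and 15), with Dio2, a thyroid hormone deiodinase, at 1.07 ± 0.14 and Selenop, the secreted selenium carrier, at 0.55 ± 0.08. Producers of superoxide and peroxide had 5 of 15 on either side (1 higher and 4 lower with median centring), with Cyba, a membrane subunit of NADPH oxidases, at -1.09 ± 0.04, Duoxa1 at -0.64 ± 0.22 and Maoa at 0.52 ± 0.06. Other antioxidant genes had 7 of 18 higher and 4 lower (1 and 12), with the copper oxidase Cp at 1.20 ± 0.02, the lactonase Pon3 at -1.26 ± 0.06 and Ncoa7 at -0.57 ± 0.08.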

How the data were processed

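The deposited scanner files hold raw intensity of spots and background and a red over green log10 ratio, per the file headers, which name Agilent Feature Extraction 9.5.3.1 and build mm7. The authors' deposited value table is on a log2 scale and correlated with the scanner's log2 red over green at r = -0.998, -0.996 and -0.992, so it runs as labelled KO over labelled WT. Each column has a median of 0.0276, and the centring was not given in the sources used here. Mean signals and median backgrounds were corrected with limma's normexp (limma 3.58.1, R 4.3.3, offset 50, which draws dim ratios toward 0). The normexp model was fitted on spots without outlier marks, a choice made after seeing the data. Ratios were normalised by loess within each array and averaged per probe. A probe was tested if well above background in 1 channel on all 3 arrays, and the brightest tested probe stood for its gene. Names came from RefSeq accessions for 22951 probes, from symbols or synonyms for 9768, and from the file for 8455. The mean ratio was tested against 0 (lmFit, eBayes, two-sided, 2 residual degrees of freedom). This fit was also run on simulated data with independent noise and few changed genes. The simulated data held no dyes or normalisation, so that run does not bear on a dye bias. Named with full values were members past the threshold by at least 0.5 and those listed singly in the name rule, and in the other lists genes past the threshold by at least 0.5, or otherwise the 2 widest. Members and lists were chosen with earlier results of these data known. Alternatives were another offset (10), normexp on all spots, median centring, the scanner's processed signals, the authors' table, other filters, the median of a gene's probes and each array left out. The number of arrays limits the precision.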

Additional observations from a re-analysis of the deposited data

How the results depend on the processing

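Median centring in place of loess moved the counts most: 9 members were higher and 25 lower, 7 other redox genes were higher and 84 lower, and 731 genes in all were higher and 9387 lower. Under it Cat (-0.26), Gclc (-0.14), Nqo1 (-0.33) and Srxn1 (-0.31) turned below 0, with the median of all genes at -0.26. The cause was not tested. With normexp fitted on all spots 2319 genes in all were higher, 28 members were higher and 7 lower. Under the other alternatives, offset 10, the processed signals, the authors' table, both filters and the median of a gene's probes, between 31 and 35 members were higher and 8 or 9 lower. Leaving out each array in turn left between 32 and 33 members higher and between 8 and 10 lower, and the members given with all array values by rule kept their direction and side of the threshold in all 69 such values. Gsto2, Prdx3, Prdx4, Sod1, Sod2 and Txnip each changed call in at least 1. Depth limits the dim members: between normexp on all spots and the processed signals Gsta2 went from 0.02 to 2.23, Gpx3 from -0.04 to -1.63, Gsta1 from 0.16 to 1.18 and Mgst2 from 0.16 to 1.14. Gpx7 went from -1.42 to -3.79, though not dim in labelled WT. The test was already paired by array, since the ratio within each array sets its channels against each other. The labels give a single group of ratios, so no further pairing was possible.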
